A study of Mus musculus with 12 samples.

Results

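The nuclear genes for the subunits of respiratory complexes II, III, IV and V, together with the soluble electron carrier cytochrome c, were followed across 12 RNA-seq libraries of mouse Purkinje cells. Members were the protein-coding genes whose symbol is Sdha, Sdhb, Sdhc, Sdhd, Cyc1 or Cycs or begins with Uqcr, Atp5 or Cox followed by a digit from 4 to 8. The rule took 49 of the 43346 annotated genes, namely 4 genes of complex II, 9 of complex III, the cytochrome c gene, 18 of complex IV and 17 of complex V, and it used no measured value. It also took Cox7a2l, a supercomplex factor, and Atp5s, coupling factor B, which are not catalytic or structural subunits of a single complex. The libraries came from 1 male mouse, 14 months old, of strain B6CASTF1/J, a hybrid between Castaneus and C57Bl6. From parasagittal tissue, 13 Purkinje cells were excised and homogenised together, and each library received RNA longer than 200 bases from 1 cell-equivalent of that lysate with spike-in RNA added. There was 1 group, with no treatment, genotype contrast or control, so no groups were compared. Libraries are named by their technical replicate numbers, 1 to 6 and 8 to 13. All p-values and SDs below measure the spread among splits of 1 lysate, not between cells or animals, and n is 12 libraries throughout.

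In the inner mitochondrial membrane, complex II (succinate dehydrogenase) passes electrons from succinate to ubiquinone. Complex III (the cytochrome bc1 complex) passes them from there to cytochrome c, which carries them to complex IV, cytochrome c oxidase. Complexes III and IV move protons across the membrane, and complex V, the ATP synthase, lets them flow back through its membrane ring and makes ATP in its F1 head. Complex II is wholly nuclear-encoded, whereas the central subunits of complexes III, IV and V come partly from mitochondrial DNA. Purkinje cells are large inhibitory neurons that fire at high sustained rates and depend on oxidative metabolism.

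Levels are given as TPM, a share of all transcripts after division by transcript length, as mean ± SD. Total expected counts were between 15167444 and 27806010 per library, and counts of annotated genes per spike-in count were between 5.86 in library 3 and 19.9 in library 13. All 8 Purkinje markers examined, among them Pcp2 and Calb1, had at least 50 counts in every library, and together they summed to 24288 ± 4808 TPM. Markers of Bergmann glia and astrocytes summed to 2061 ± 672 TPM, of granule cells to 409.9 ± 205 TPM (5 of 6 and 3 of 6 markers had at least 50 counts in every library), of oligodendrocytes to 189 ± 83.5 TPM, of red blood cells to 744 ± 322 TPM and of microglia to 102 ± 156 TPM. Interneuron markers summed to 33.1 ± 29.1 TPM. In pooled lysate, fewer cells of a type and less RNA per cell cannot be told apart, and the part of these other cells in the members' levels was not tested.

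The members were among the most abundant nuclear transcripts of these cells. Together they averaged 39332.5 ± 5113 TPM, with 26609 TPM in library 1, a median of 40663 TPM and 46156 TPM in library 8. Of the 49 members, 42 averaged at least 100 TPM, 29 at least 500 TPM and 19 at least 1000 TPM, against 1149, 216 and 97 of all 43346 annotated genes. An expected count of at least 1 in every library was found for 42 members, where the background over all annotated genes was 8.46%. With the bound raised to 50 counts, 41 members passed in all libraries, where the background was 3.72%. The members that failed the lower bound were Cox7a1, Cox4i2 and Atp5s, counted in 7, 4 and 8 libraries, and 4 isoforms of complex IV that had no count anywhere.

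Complex V took the largest share of the members' TPM with 17507 ± 2836 TPM, followed by complex IV with 11733 ± 1529, complex III with 8890.0 ± 1225, complex II with 1034 ± 255 and cytochrome c with 169 ± 48.9 TPM. Complex II thus accounted for 2.63% of the members' TPM with 4 of 49 genes, and for 5.73% of their CPM, the share of counts without length correction. For scale, the protein-coding genes whose symbol begins with Nduf, mostly complex I, summed to 27146 ± 3135 TPM over 46 genes. The mitochondrially encoded subunits of complexes III to V summed to 30338 ± 9486 TPM over 6 genes. Library 1 was the lowest library for complexes III, IV and V, for cytochrome c and for the Nduf genes. The members' summed TPM was lowest in libraries 1, 4 and 13 (26609, 32853 and 37677 TPM). The same libraries had the highest counts of annotated genes per spike-in count (18.4, 15.3 and 19.9). They also had the most annotated genes with at least 1 count (10542, 11317 and 11581). Libraries 4 and 13 had the highest sums of the mitochondrially encoded subunits (48757 and 46752 TPM), whereas library 1 had 29975.5 TPM. None of these relations was tested.

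**Figure D1:**
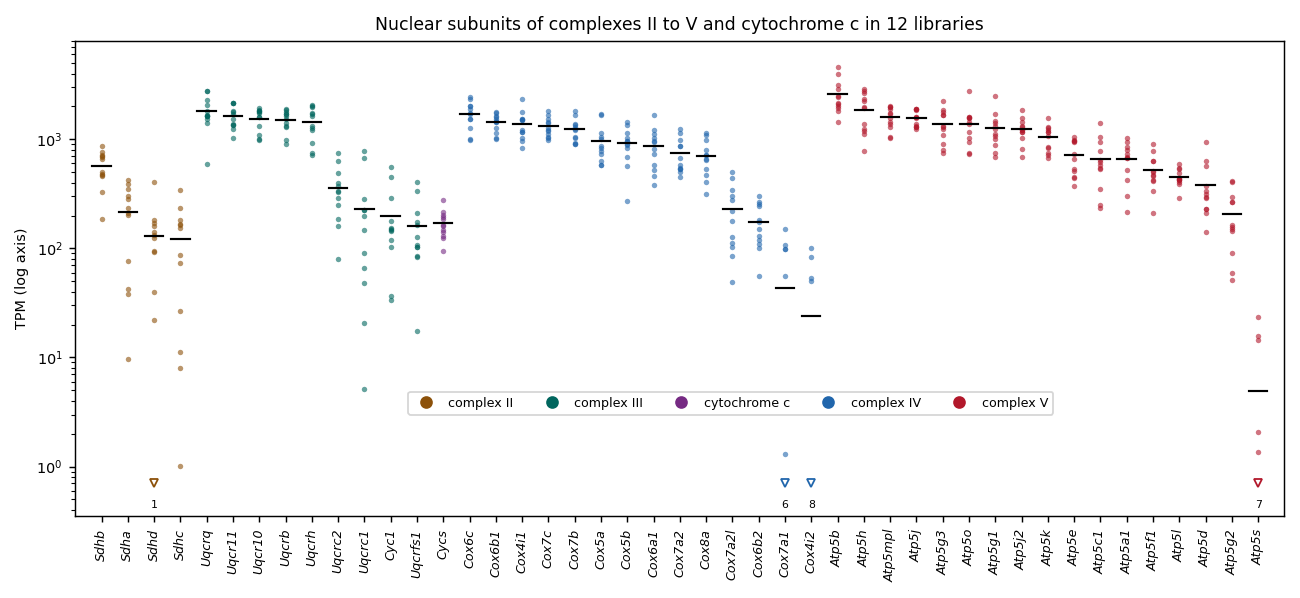
TPM on a log axis for the 45 members with any count, grouped by complex and ordered by mean. Each point is 1 of 12 libraries, the black line is the mean, and an open triangle with a number gives how many libraries lay below 1 TPM. The small supernumerary subunits form a plateau near 1000 TPM, with the complex II genes, the complex III core genes and the tissue isoforms of complex IV below it.

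Of the 4 complexes, complex II had the lowest summed level, and its members were uneven among splits. Sdhb, the iron-sulphur subunit, averaged 569 ± 197 TPM, with 184 TPM in library 8, a median of 581.7 and 864 TPM in library 9. Sdha, the flavoprotein that oxidises succinate, averaged 214 ± 144 TPM and ran from 9.61 TPM in library 8 to 424 TPM in library 10. Sdha was below Sdhb in 11 of 12 libraries, with a mean log2 ratio of Sdha to Sdhb of -1.89 ± 1.51. An exact sign-flip permutation test of the within-library differences, two-sided and adjusted across the 17 gene pairs tested, gave p = 0.00184. On CPM the same log2 ratio was -0.90 and its adjusted p was 0.0631 in the same permutation test. The membrane anchors Sdhc and Sdhd averaged 121 ± 105 and 130 ± 105 TPM. Library 1 held 1.02 TPM of Sdhc and 0.38 TPM of Sdhd, but library 4 held 341 and 161 TPM, and library 8 held 26.5 and 405 TPM. Their log2 ratio ran from -3.89 to 2.98, and the permutation test did not separate them (adjusted p = 0.645). Each anchor mRNA was thus close to 0 in at least 1 split of the lysate and among the more abundant genes in another.

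On TPM, complex III was divided between more abundant small subunits and less abundant core and electron-carrying subunits. The supernumerary subunits Uqcrq, Uqcr11, Uqcr10, Uqcrb and the hinge protein Uqcrh summed to 7948 ± 989.9 TPM, or 20.2% of the TPM of all members. Uqcrq led with 1817 ± 605 TPM, with 588 TPM in library 6, a median of 1667 and 2785 TPM in library 11. Uqcr11 averaged 1635 ± 379.9 TPM and Uqcr10 averaged 1545 ± 347 TPM, followed by Uqcrb with 1504 ± 321 TPM and Uqcrh with 1447 ± 486 TPM. All 5 were counted at 50 or more in every library, and that of Uqcrq in library 6 was the lowest of their values.

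The electron-carrying and core subunits were lower, by a margin that depended on the length correction. Mean CPM was between 215 and 399 for these 4 genes and between 554 and 692 for the 5 small subunits, whereas on TPM the means were between 160.0 and 355 against 1447 to 1817. Uqcrc2 and Uqcrc1, the core proteins that face the matrix, averaged 355 ± 191 and 229 ± 248 TPM. Uqcrc1 had the highest coefficient of variation (SD over mean, 1.08) of the members above 100 TPM, running from 5.19 TPM in library 3 through a median of 172 to 777 TPM in library 10, with 667 TPM in library 12. Its mean thus leans on libraries 10 and 12. The mean log2 ratio of Uqcrc1 to Uqcrc2 was -1.35 ± 1.79, with Uqcrc1 higher in 3 of 12 libraries (adjusted p = 0.0228, exact sign-flip permutation test), and on CPM it was -1.01 with an adjusted p of 0.0945. Cyc1, the cytochrome c1 that hands electrons to cytochrome c, averaged 197.5 ± 160.4 TPM, and Uqcrfs1, the Rieske iron-sulphur protein, averaged 160.0 ± 111 TPM. The test did not separate the pair, whose log2 ratio ran from -2.61 to 1.77 (adjusted p = 0.645, same permutation test).

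Complex IV transcripts were dominated by the isoforms found in most tissues. Cox6c led with 1708 ± 468 TPM, followed by Cox6b1 with 1425 ± 261 TPM and Cox4i1 with 1379 ± 409.9 TPM. Cox6b1 sits between the monomers of the dimer, and Cox4i1 is the isoform of subunit 4 that most tissues use. Cox5a and Cox5b, which contact the catalytic core from the matrix side, averaged 965 ± 384 and 922 ± 321 TPM. Their log2 ratio, Cox5a over Cox5b, was 0.08 ± 0.80 with 6 libraries on each side, and it was not separated from 0 (adjusted p = 0.723, exact sign-flip permutation test).

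The tissue isoforms of complex IV were low or missing, with 1 exception. All 7 together summed to 241 ± 77.3 TPM, or 0.613% of the members' TPM. Cox6b2, best known as the testis form of subunit 6B, was counted in every library, with 55.9 TPM in library 4, a median of 163 and 304 TPM in library 2. It averaged 174 ± 77.1 TPM, and the mean log2 ratio of Cox6b1 to Cox6b2 was 3.14 ± 0.75, with Cox6b1 higher in 12 of 12 libraries (adjusted p = 0.00104, exact sign-flip permutation test). Cox6b2 (chr7:4751792-4753094) was the only tissue isoform of complex IV counted in all 12 splits.

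Cox4i2 and Cox7a1 came and went between splits. Cox4i2, the isoform of subunit 4 known from lung and vascular cells, had 82.97 TPM in library 4, 100 TPM in library 9, 53.1 TPM in library 11 and 50.7 TPM in library 13, and no count in the other 8 libraries. Cox7a1, the heart and muscle isoform of subunit 7A, had 55.4 TPM in library 1, 152 TPM in library 3, 98.9 TPM in library 5, 98.6 TPM in library 9 and 108 TPM in library 12. It had 6 counts in library 6, 2 counts in library 11 and none in the other 5 libraries. Only library 9 held both above 50 TPM. A list of 6 endothelial and mural markers summed to 0 TPM in libraries 1, 3, 5, 6, 8 and 11 and to 287 TPM in library 13, with Acta2 and Cldn5 at 0 throughout. In the 4 libraries that held Cox4i2, the same list summed to 0.46, 45.0, 0 and 287 TPM in libraries 4, 9, 11 and 13, and its part in the Cox4i2 level was not tested. The ubiquitous partners were higher in 12 of 12 libraries, with a mean log2 ratio of 8.33 ± 3.02 for Cox4i1 over Cox4i2 and of 6.56 ± 3.16 for Cox7a2 over Cox7a1 (adjusted p = 0.00104 for each, exact sign-flip permutation test). The size of these ratios rests on the pseudocount, since zeros enter them: they were 10.6 and 8.12 with 0.1 TPM added and 6.07 and 4.71 with 10 TPM added, in place of 1.

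The remaining 4 tissue isoforms, Cox6a2 and Cox8b of heart and skeletal muscle and Cox7b2 and Cox8c of testis, had no count in any library. Set against the limit that 3 counts over the 12 libraries allow, Cox6a1 was at least 37510-fold higher than Cox6a2 and Cox7b at least 42089-fold higher than Cox7b2. On the same terms Cox8a was at least 14375-fold higher than Cox8b and at least 20605-fold higher than Cox8c. Those limits cover counting error only, since amplified reads were not collapsed to molecules. They also use the gene-level TPM of the detected form. For Cox7b, transcripts annotated as protein-coding held 220 ± 75.2 of the 1231 TPM, and a bound on these alone was not computed. The detected forms averaged 869.7 ± 369 TPM for Cox6a1, 1231 ± 297 TPM for Cox7b and 708 ± 262 TPM for Cox8a. Cox7a2l, which joins complexes III and IV in supercomplexes, averaged 228 ± 146 TPM, and Cox7a2, the general form of subunit 7A, averaged 746 ± 269 TPM. Their log2 ratio, Cox7a2 over Cox7a2l, was 1.93 ± 0.95, with Cox7a2 higher in 12 of 12 libraries (adjusted p = 0.00104, same permutation test).

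Complex V was led by Atp5b on gene-level TPM, followed by genes of the stalk and of the membrane part. Atp5b, the catalytic beta subunit of F1 (chr10:128083273-128090391), was the most abundant member with 2581 ± 927 TPM, with 1437 TPM in library 2, a median of 2313 and 4619 TPM in library 8. Atp5h, subunit d of the peripheral stalk, averaged 1874 ± 718 TPM, and Atp5mpl, a small proteolipid of the membrane part, averaged 1592 ± 354 TPM. Atp5a1, the alpha subunit that alternates with beta in the F1 hexamer, averaged 653 ± 248 TPM. It was below Atp5b in 12 of 12 libraries, with a mean log2 ratio of Atp5a1 to Atp5b of -2.03 ± 0.76 (adjusted p = 0.00104, exact sign-flip permutation test), whereas CPM gave -0.54 with an adjusted p of 0.0885. Among the other members, the stalk genes Atp5j (coupling factor 6) and Atp5o averaged 1569 ± 261 and 1380.0 ± 552 TPM. Atp5j2 and Atp5k, subunits f and e of the membrane part, averaged 1229 ± 309 and 1044 ± 277 TPM.

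Central-stalk subunits of F1 also differed in mRNA level. The mean log2 ratio of Atp5c1 (gamma) to Atp5d (delta) was 0.81 ± 0.92, with Atp5c1 higher in 10 of 12 libraries (adjusted p = 0.0226, exact sign-flip permutation test). The mean log2 ratio of Atp5d to Atp5e (epsilon) was -1.02 ± 0.83, with Atp5d higher in 1 of 12 libraries (adjusted p = 0.00249, same test), but on CPM it turned to 0.33 with an adjusted p of 0.248. Mean levels were 662 ± 342 TPM for Atp5c1, 379 ± 227 TPM for Atp5d and 716 ± 251.2 TPM for Atp5e. In the peripheral stalk, Atp5f1 (subunit b, 523 ± 189 TPM) was below Atp5h in 12 of 12 libraries, with a mean log2 ratio of -1.82 ± 0.67 and an adjusted p of 0.00104 in the same permutation test. CPM gave -0.31 with an adjusted p of 0.168. The lowest measured member of complex V was Atp5s with 4.92 ± 8.15 TPM. It lay between 14.4 and 23.7 TPM in libraries 2, 9 and 12, where it had at least 486 counts, and at or below 2.07 TPM in the other 9.

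Atp5g1, Atp5g2 and Atp5g3 all encode subunit c, the proteolipid whose ring turns as protons pass. The last 120 coding bases before the stop codon, which encode part of the ring protein itself, are shown for the leading transcript of each gene, since reads from them have to be told apart by their differences. Bases in capitals differ from Atp5g3, and each stretch spans an intron in the genome (GRCm38, minus strand: chr2:73908596-73909191 for Atp5g3, chr11:96073107-96073530 for Atp5g1 and chr15:102663017-102665061 for Atp5g2).
Atp5g3: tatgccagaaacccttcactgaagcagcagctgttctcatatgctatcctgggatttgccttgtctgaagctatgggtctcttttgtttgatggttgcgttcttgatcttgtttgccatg
Atp5g1: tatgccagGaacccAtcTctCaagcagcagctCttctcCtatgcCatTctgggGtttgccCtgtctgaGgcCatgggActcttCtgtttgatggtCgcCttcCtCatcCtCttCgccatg
Atp5g2: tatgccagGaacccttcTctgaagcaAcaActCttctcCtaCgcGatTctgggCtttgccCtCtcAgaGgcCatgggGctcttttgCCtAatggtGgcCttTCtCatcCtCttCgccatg
Atp5g1 differed from Atp5g3 at 21 of the 120 bases, 18 of them the last base of a codon, and Atp5g2 at 27, of which 23 were the last base of a codon. Transcripts of the ring genes were supplied mainly by Atp5g3 and Atp5g1, which averaged 1384 ± 468 and 1259 ± 486 TPM, against 206 ± 124 TPM for Atp5g2. Atp5g3 held 48.4 ± 9.59% of the ring genes' TPM, Atp5g1 44.3 ± 10.9% and Atp5g2 7.34 ± 4.03%. Atp5g3 and Atp5g1 traded places between libraries, with a log2 ratio from -0.92 to 1.15 that was not separated from 0 (adjusted p = 0.593, exact sign-flip permutation test). Atp5g2 was below both in 12 of 12 libraries, with mean log2 ratios of 2.80 ± 1.16 for Atp5g1 over Atp5g2 and 2.94 ± 1.03 for Atp5g3 over Atp5g2 (adjusted p = 0.00104 for each, same test). These shares and ratios use the deposited rows alone. Other genes share 86.4% of the 100-base stretches of the leading Atp5g2 transcript. With such genes added to each member, the ratios fell to 2.14 ± 1.00 and 1.70 ± 0.90, with Atp5g2 lower in 12 of 12 libraries. In all, 12 of the 17 pairs tested differed, 6 of 7 paralog pairs and 6 of 10 partner pairs, and on CPM 8 of the 17 did.

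**Figure D2:**
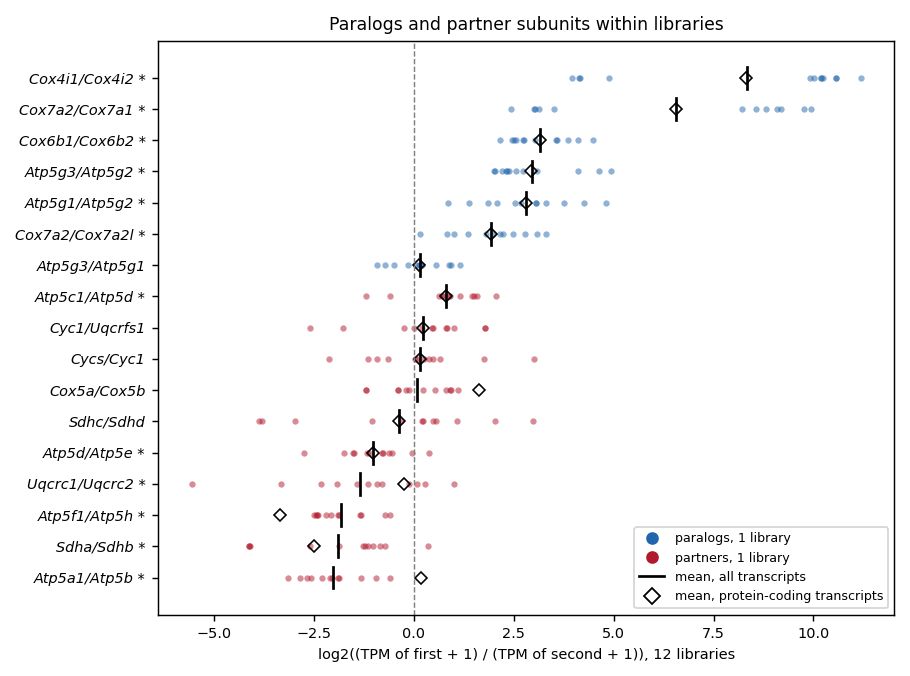
Log2 ratio of the first to the second gene of each pair on TPM + 1, with 1 point per library (n = 12), a black bar at the mean and a star for an adjusted p below 0.05. Open diamonds give the mean when transcripts annotated as protein-coding alone are counted: they leave the bars by more than 1 log2 unit for Atp5a1/Atp5b, Atp5f1/Atp5h, Cox5a/Cox5b and Uqcrc1/Uqcrc2. For Uqcrc2 this leaves out a transcript of unknown type.

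The deposited tables also divide each gene's TPM among its annotated transcripts, and for some members most of it lay in transcripts not annotated as protein-coding. Among the 45 members with a mean of at least 1 TPM, 35 had at least 90% of their TPM in transcripts annotated as protein-coding, and 6 had under 50%. In Atp5b, protein-coding transcripts held 14.5 ± 6.48% of the gene's TPM, or 381 TPM. Its leading transcript, Atp5b-206, is a processed transcript of 478 bases that held 62.1 ± 6.32% of the TPM. By expected counts it held 38.3 ± 7.15%, and the protein-coding Atp5b-201 of 1916 bases had the highest mean count, with 40.6 ± 12.3%, and led in 6 of 12 libraries. Counted on protein-coding transcripts alone, Atp5a1 had 412 TPM and the log2 ratio of Atp5a1 to Atp5b turned from -2.03 to 0.18 (adjusted p = 0.645, exact sign-flip permutation test).

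Cox7b, Atp5j, Cox5b, Atp5f1 and Uqcrc2 were the other 5 of these 6. Cox7b was led by a retained-intron transcript with 69.6 ± 6.58% of its TPM, against 18.1 ± 5.46% for its protein-coding transcript. Atp5j was led by a retained-intron transcript with 73.6 ± 5.75%. Cox5b was led by a processed transcript of 362 bases with 64.0 ± 6.09% of TPM, but by counts the protein-coding Cox5b-204 led in 9 of 12 libraries with 50.2 ± 9.86%. On coding transcripts alone Cox5a over Cox5b reached a log2 ratio of 1.62 (adjusted p = 0.000922, exact sign-flip permutation test). Atp5f1 was led by a transcript annotated for nonsense-mediated decay with 64.6 ± 11.1%, and its log2 ratio to Atp5h on coding transcripts was -3.36. Uqcrc2 held 49.1 ± 20.6% in its coding transcript and 38.9 ± 23.2% in one that the annotation used here does not list. The type of that transcript is thus unknown, and it was not counted as coding. On the transcripts counted as coding, the log2 ratio of Uqcrc1 to Uqcrc2 shrank to -0.25 (adjusted p = 0.672, same test). The ratio with the unlisted transcript taken as coding was not computed. By complex, protein-coding transcripts held 92.2 ± 6.44% of the TPM of complex II, 89.9 ± 3.56% of complex III, 84.3 ± 2.87% of complex IV and 76.6 ± 3.77% of complex V. These shares are the authors' division of reads among overlapping transcripts, and how far short reads fix that division was not tested.

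Of the 34 members with several annotated transcripts, 23 had the same leading transcript in every library in which they were counted, and 25 did by counts. Among those that changed were Sdhc, Cox6b2 and Uqcrc2, whose leading form led in 8, 7 and 6 libraries by TPM and in 6, 7 and 12 libraries by counts, so Uqcrc2 did not switch by counts. In Cox6b2 the leading protein-coding transcript held between 0.893% and 100% of the TPM of a single library. Each of these switches was between libraries of the same lysate.

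For some members, similar genes elsewhere in the genome summed to a higher TPM than the member itself. For 12 members, genes at other places share at least 1 stretch of 100 bases with a transcript of the member. That is the fragment or read length implied by the deposited effective lengths. These genes are called copies here, and 6 of the 12 members had copies that summed to at least 100 TPM. The rule also takes genes that share very little. For Atp5g1, Wdr33 (22.7 ± 35.5 TPM) shares 2 stretches, against 285 for Gm10039 (584 ± 177 TPM). Cycs (chr6:50562563-50566538) stood out, with 169 ± 48.9 TPM against 2479.5 ± 643 TPM for its copies, of which Gm10108 held 1632 ± 399 and Gm10053 848 ± 312 TPM. Its own row ran from 94.8 TPM in library 1 through a median of 161 to 278 TPM in library 12, and its copies were higher in 12 of 12 libraries. The copies have effective lengths of 219 and 850.0 bases against 3024 bases for Cycs, so in expected counts Cycs held 32.4 ± 2.32% of the reads of member and copies together. The log2 ratio of Cycs to Cyc1 was 0.15 ± 1.34 as deposited (adjusted p = 0.723), 1.61 on CPM (adjusted p = 0.00474) and 4.12 ± 1.36 with the copies added (adjusted p = 0.00104, exact sign-flip permutation test).

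Atp5l, subunit g of the membrane part (chr9:44912557-44920742), showed the same division. It had 291 TPM in library 1, a median of 432 and 595 TPM in library 6, against 1672 ± 366 TPM for its copies, mostly Gm10221 with 1666 ± 365 TPM. Its copies were higher in 12 of 12 libraries, and Atp5l held 25.9 ± 3.08% of the counts of both. Cox7c averaged 1309.6 ± 259.6 TPM against 1388 ± 269.7 TPM for Gm12338 and Gm10012, which were higher on TPM in 9 of 12 libraries. Those copies have effective lengths of 93 and 157 bases, and Cox7c held 78.3 ± 1.81% of the counts of both. Atp5g2 had 206 ± 124 TPM against 268 ± 154 TPM in its copies, and Atp5g1 had 1259 ± 486 against 612 ± 173 TPM. With the copies added, Atp5g3 over Atp5g1 turned from a log2 ratio of 0.14 to -0.45 (adjusted p = 0.0492, exact sign-flip permutation test). The copies of Atp5g1 include genes that share only 1 or 2 stretches with it, and the ratio with Gm10039 alone was not computed. Over the 12 libraries, Spearman's rho between member and copies was 0.90 for Cox7c, 0.87 for Cycs, 0.84 for Atp5g2, 0.78 for Atp5g1, 0.68 for Atp5l and 0.63 for Atp5h. For the 6 members whose copies summed to less than 100 TPM, rho ran from 0.16 for Cox7a2l to 0.85 for Atp5o. Levels of Cycs, Atp5l, Cox7c, Atp5g1, Atp5g2 and Atp5h depend on how reads were divided between member and copies. The authors' posterior SD was 0.519% of the mean count for Cycs, 3.31% for Atp5l and 0.647% for Cox7c. It was 0.894% for Atp5g1, 3.77% for Atp5g2 and 0.209% for Atp5h. Whether that division was right was not tested. Of the 45 members, 28 shared no 100-base stretch of their leading transcript with another gene.

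**Figure D3:**
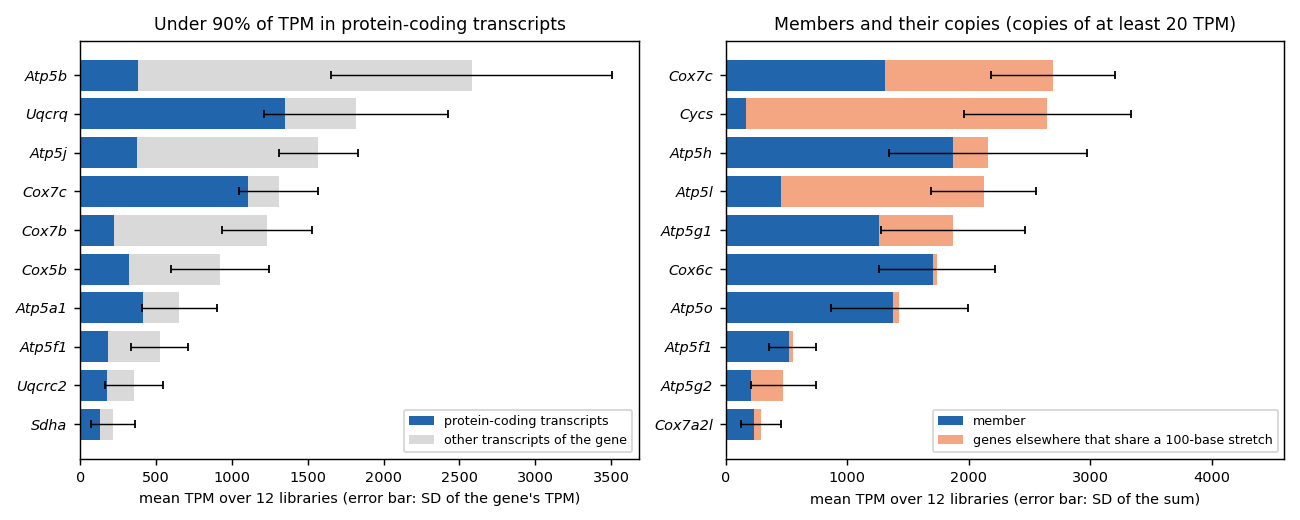
Mean TPM over 12 libraries. Left, the 10 members with under 90% of their TPM in protein-coding transcripts, in blue, with the rest of the gene's TPM in grey; Atp5b shows 381 of 2581 TPM in blue. Right, members in blue and genes elsewhere that share a 100-base stretch in orange; Cycs shows 169 TPM beside 2479.5 for its copies. Error bars are SDs of the gene's TPM (left) and of the sum (right).

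Most members lay below the trend of variability with read count, but only 2 of 45 were called less variable. In edgeR's quasi-likelihood fit on rounded counts, each gene's dispersion was set against the trend of dispersion with abundance over 13899 genes. Abundance here is in counts without length correction, so genes of like count can differ in TPM. Of the 45 members tested, 34 (75.6%) lay below the trend, against 34.0% of all genes tested, and the median log2 ratio to the trend was -0.55 for members and 0.26 for all genes. After Benjamini-Hochberg adjustment 2 members were less variable than the trend, where the background was 2.14% of genes, and none was more variable, where the background was 0.0144%. Without adjustment 10 of 45 members were less variable, where the background was 5.89% of genes, and 1 was more variable, where the background was 0.684%. The same count of 0 more variable members was found with DESeq2 size factors and with spike-in factors. In simulated data, the test for more variability recovered 47.0% of genes given 8-fold the trend's dispersion. A count of 0 therefore does not show that no member varied more than the trend. The members called were Atp5l, with a log2 ratio to the trend of -4.31 and an adjusted p of 0.00175, and Cox6b2, with -3.42 and an adjusted p of 0.0180 in edgeR. Atp5l shared 69.0% of the 100-base stretches of its leading transcript with other genes, and with spike-in factors it was at -2.49 with an adjusted p of 0.178. The member with an unadjusted p below 0.05 for more variability was Uqcrc1, with a log2 ratio of 2.01.

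Coefficients of variation (CV, the SD over the mean of TPM) gave a related picture on a per-length scale. Members of at least 100 TPM had CVs from 0.167 for Atp5j to 1.08 for Uqcrc1, with a median of 0.360, against a median of 0.576 for all 1149 genes of at least 100 TPM. Against a running median of genes of like TPM, 28 of 45 members lay below it (62.2%), against 6097 of 12184 genes in all. Across the 42 members of at least 100 TPM, effective length went with lower TPM (Spearman's rho = -0.64) and with higher CV (rho = 0.66). Effective length also went with lower TPM over all 1149 genes of at least 100 TPM (rho = -0.34). Across all 1149 genes of that level, effective length was related to the CV relative to the running median with rho = -0.23, against 0.57 across the members. Genes are not independent replicates, and these are descriptions of 1 set of libraries. Single genes departed from the relation: the longest of these members, Cycs with 3024 bases, had a CV of 0.289, and Sdha and Atp5a1, the next longest, had 0.674 and 0.379.

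**Figure D4:**
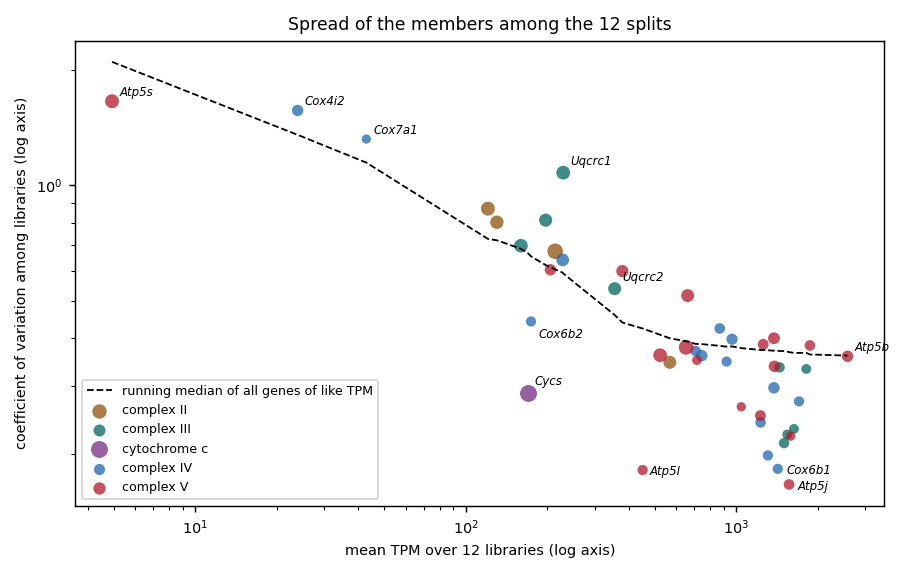
Coefficient of variation of TPM among 12 libraries against mean TPM, both on log axes, for 45 members coloured by complex, with larger points for longer genes. The dashed line is the running median over the genes nearest in TPM, with a window cut off above at the highest TPM. Atp5l, Cycs, Atp5j and Cox6b1 lie farthest below it and Uqcrc1, with a CV of 1.08, lies above it.

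Subunits of the same complex and subunits of different complexes had similar correlations across splits. The median Spearman correlation over the 12 libraries was 0.133 over 269 pairs within a complex and 0.126 over 721 pairs between complexes. For members of at least 100 TPM it was 0.168 and 0.154, against 0.0211 over all pairs of the 1149 genes of at least 100 TPM. Without library 1, which was low for most members, the medians within and between complexes over the 45 members were 0.0273 and 0.0364. The highest correlations were 0.853 between Cox7c and Cox5b, 0.825 between Uqcr11 and Uqcrb and 0.825 between Cox7a2 and Atp5k, and the lowest were -0.727 between Cyc1 and Atp5mpl and -0.720 between Sdha and Atp5g1. TPM of 1 library share a total and a depth, so no test is attached to these values.

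**Figure D5:**
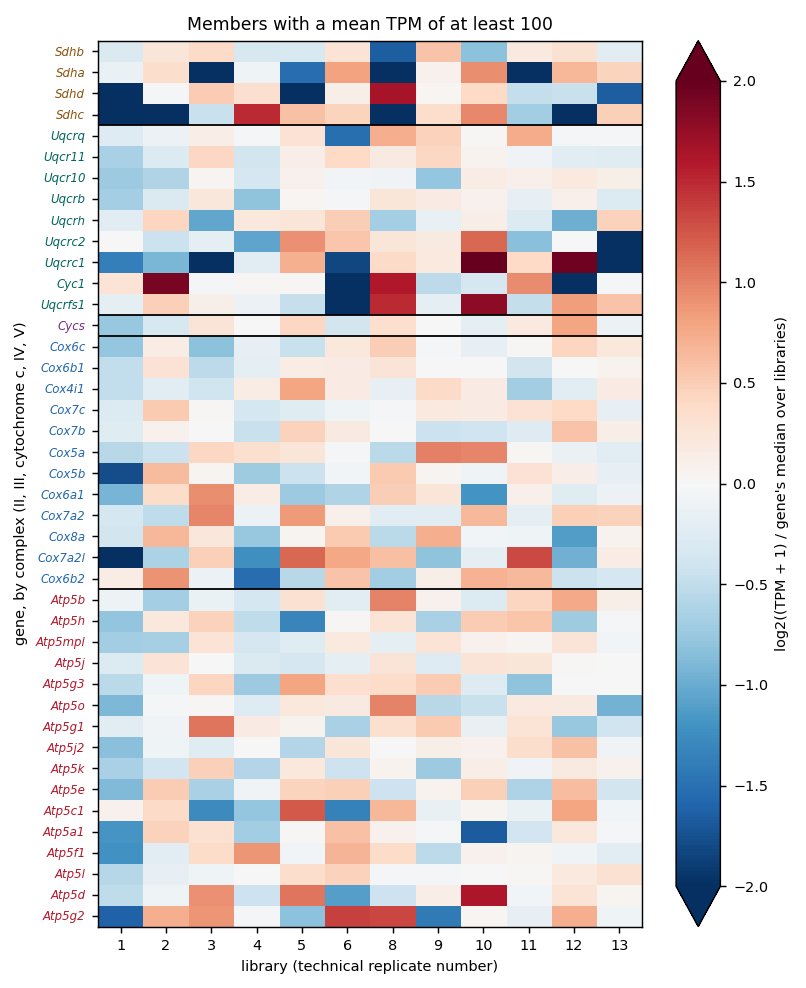
Log2 of TPM + 1 over the gene's own median, for the 42 members with a mean of at least 100 TPM (rows, by complex) in 12 libraries (columns). Library 1 is blue for most rows, and the tiles beyond 2 log2 units, where the colours end, belong to Sdha, Sdhc, Sdhd, Uqcrc1, Uqcrc2, Uqcrfs1 and Cyc1.

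Genes that build or regulate these complexes were mostly far less abundant than the subunits. Of 38 assembly factors, inhibitors and associated proteins, all averaged at least 1 TPM, and 11 reached 50 counts in each of the 12 libraries. The highest were Ndufa4, a protein later counted with complex IV, with 3220.1 ± 726 TPM, Atpif1, the inhibitor of ATP synthase reversal, with 968 ± 234 TPM, and Uqcc2, a complex III assembly factor, with 609.5 ± 301 TPM. The lowest was Cox15, which makes haem A for complex IV, with 3.04 ± 7.53 TPM. Cox17, the copper chaperone of complex IV, averaged 453 ± 124 TPM and was the only 1 of the 38 less variable than the trend (log2 ratio -3.78, adjusted p = 0.00715 in edgeR). None was more variable. Over all 13899 genes tested, the background was 2.14% less variable and 0.0144% more variable. The regulators Nrf1, Gabpa, Tfam, Ppargc1a and Esrra summed to 40.7 ± 33.6 TPM. Esrra, a nuclear receptor that activates mitochondrial genes, averaged 4.28 ± 4.39 TPM. It was the only 1 of these 5 called less variable (log2 ratio -3.17, adjusted p = 0.0349 in edgeR), against the same background. The mitochondrially encoded partners ran from 1176 ± 274 TPM for mt-Co3 to 8119 ± 3083 TPM for mt-Atp8, with 7005 ± 2063 TPM for mt-Atp6 and 6128 ± 2257 TPM for mt-Cytb, and none of the 6 was called in either direction. mt-Atp8 overlaps mt-Atp6, and near-identical nuclear copies of mitochondrial sequence exist, so the division of those reads is uncertain.

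Promoters of respiratory genes are known for sites of NRF1 and of ETS factors such as GABPA, and both regulators were themselves at 6.59 ± 13.5 TPM (Nrf1) and 8.32 ± 10.9 TPM (Gabpa). RefSeq windows on GRCm38.p6, from 250 bases before to 50 after the start, matched 37 members by symbol or synonym. The NRF1 core GCGCATGC was found on either strand in 8 of the 37 (21.6%), against 3.05% of 27025 genes in the table and 7.95% of the 830 with a mean of at least 100 TPM. The ETS motif CCGGAAGT was found in 4 of the 37 (10.8%), against 4.31% of all and 11.2% of the abundant genes. The 8 were Sdhb, Uqcrc1, Uqcr11, Cycs, Cox6a1, Atp5g2, Atp5k and Atp5l, and the 4 were Uqcrh, Uqcr11, Cox8a and Atp5h. In Uqcrc1, Cox6a1, Atp5g2 and Atp5k, overlapping letters matched the core on both strands. The 120 bases before the start are shown for 5 members from 3 complexes and cytochrome c, with motif letters in capitals, as examples of matches that lie wholly within this stretch.
Sdhb, chr4:140961151-140961270, plus strand: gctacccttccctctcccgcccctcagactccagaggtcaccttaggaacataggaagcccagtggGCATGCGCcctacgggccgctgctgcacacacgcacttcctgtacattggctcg
Cycs, chr6:50566570-50566689, minus strand: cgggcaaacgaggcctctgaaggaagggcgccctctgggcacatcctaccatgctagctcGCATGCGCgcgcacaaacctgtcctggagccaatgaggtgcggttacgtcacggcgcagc
Atp5k, chr5:108434400-108434519, minus strand: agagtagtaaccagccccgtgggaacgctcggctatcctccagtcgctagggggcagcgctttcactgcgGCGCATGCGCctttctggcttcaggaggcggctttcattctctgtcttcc
Uqcrh, chr4:116075071-116075190, minus strand: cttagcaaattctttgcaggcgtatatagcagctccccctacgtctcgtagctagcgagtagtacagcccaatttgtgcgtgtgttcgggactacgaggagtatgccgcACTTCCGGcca
Atp5h, chr11:115419920-115420039, minus strand: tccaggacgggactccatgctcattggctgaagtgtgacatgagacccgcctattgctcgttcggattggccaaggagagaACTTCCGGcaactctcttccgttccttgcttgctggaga
The isoforms Cox7a1, Cox6b2, Cox7b2 and Cox8b had neither motif in their windows, and neither had Cox6b1, Cox7a2 and Cox7b. Among members with a window, the most abundant gene, Atp5b, also had neither. A match is a description of letters and not of a bound site.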

How the data were processed

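RNA was measured in 12 Smart-seq libraries, per the labels, which are technical splits of 1 homogenate. The tables the authors deposited give, per the file headers, expected counts, TPM, FPKM, a posterior standard deviation of the count (used as a score of how firmly the authors' program placed the reads) and, for transcripts, the percent of a gene's abundance. Per the text deposited with each sample, the authors used mm10 with GENCODE M4; no aligner, counter or library strand is named in the sources used, so reads of antisense genes cannot be told apart. GENCODE M21, which has the same assembly, gave symbols, transcript types and positions, and 42462 of 43346 gene identifiers matched. The deposited TPM were used for levels, and the deposited effective lengths imply a fragment or read length of 100 bases.

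Pairs of genes were compared on log2(TPM + 1) within libraries with an exact two-sided sign-flip permutation test, adjusted by the Benjamini-Hochberg method over 17 pairs at 0.05; 4 more pairs held a gene with no count. Variability was tested in edgeR 4.0.16 on expected counts rounded to whole numbers, keeping genes whose mean count reached 5, with TMM factors and F tests of the quasi-dispersion against its trend; the procedure was tested on simulated data. DESeq2 1.42.0 supplied alternative size factors. Total counts per library, 15167444 to 27806010, set the precision of low values. The limit of a count of 0 is 3 counts over all libraries.

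Genes named are the 3 highest and the lowest measured of each complex, all pair members, all members called, those below 1 TPM, and likewise the highest, lowest and called genes of the list of assembly factors, regulators and mitochondrial partners; others were named after their values were seen. The members, pairs and lists were chosen with earlier results of these data known. The counts on protein-coding transcripts, with copies and against the running median were added after seeing the data. Pattern matches that are pseudogenes, 7 in all, were left out. Protein sequences were not used here.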

Additional observations from a re-analysis of the deposited data

How the results depend on the processing

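The pairs were recomputed on CPM (counts without length correction), TPM rescaled over annotated nuclear genes, pseudocounts of 0.1 and 10, with counts under 50 set to 0 and without each library. On CPM 8 of 17 pairs differed, against 12 on TPM, and 11 of the 17 kept direction and call. CPM ended 5 calls, those of Sdha/Sdhb, Uqcrc1/Uqcrc2, Atp5a1/Atp5b (log2 ratio -0.54, adjusted p = 0.0885 in the exact permutation test), Atp5f1/Atp5h and Atp5d/Atp5e, which also turned to 0.33, and brought in Cycs/Cyc1 (1.61, 0.00474). Under the other settings 270 of 272 values kept direction and call and 2 turned. With 1 library left out, Cox5a/Cox5b lay between -0.0107 (without library 1) and 0.20, and Cycs/Cyc1 between -0.11 (without library 12) and 0.36, and neither was called. Of the alternatives added after seeing the data, protein-coding transcripts turned Atp5a1/Atp5b to 0.18 and left 11 pairs called, and adding the copies turned Atp5g3/Atp5g1 to -0.45. The members' summed level was 39332.5 TPM, 23355 on CPM, 50699 on TPM over nuclear genes, 32431 on protein-coding transcripts and 46242 with copies, and 38712 to 40489 with 1 library left out. With spike-in size factors 1 member, not 2, was less variable than the trend. The cause of these differences was not tested beyond what each setting leaves out or adds. Expected counts rest on the authors' division of shared reads, PCR duplicates were not removed by molecular identifiers, and all spread is between splits of 1 lysate, so nothing here bears on other animals or on single cells.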
